A study of Mus musculus with 7 samples.

Results

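The 32 genes described here encode enzymes of the tricarboxylic acid (TCA) cycle, of the glutamate, aspartate, malate and citrate reactions attached to it, and of the pentose phosphate pathway. They were taken by name from a table of 15588 genes, and all 32 had a count in at least 1 library. Transcripts had been sequenced from helper (CD4) T cells that were sorted out of tumours in mice carrying an orthotopic transplant of hepatocellular carcinoma. The labels give 5 libraries from 7 days and 2 libraries from 0 days after transplantation. They name no mouse strain, age, sex or tumour line, no pooling of animals and no tissue that stood for tumour on day 0. Separate animals are not stated either, so the p-values reflect the spread among libraries, which may be technical. Each library is called by the digit that ends its column name in the table (1, 2, 3, 5 and 6 at day 7, 2 and 3 at day 0).

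In the TCA cycle, acetyl-CoA made from pyruvate by the pyruvate dehydrogenase complex is joined to oxaloacetate, and the resulting citrate is oxidised in the mitochondrial matrix to regenerate oxaloacetate and supply NADH to the respiratory chain. Glutamate enters the cycle as alpha-ketoglutarate, and citrate and aspartate leave it as building blocks for lipids and nucleotides. The pentose phosphate pathway runs beside glycolysis in the cytosol and makes NADPH and ribose phosphate. Activated T cells are known to draw on all of these routes when they grow and divide.

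No change between day 7 and day 0 passed the test in any of the 32 enzymes. In edgeR's quasi-likelihood test, fitted over 12929 genes with Benjamini-Hochberg adjustment, 0 of the 32 passed an adjusted p of 0.05, where 1.54% of all tested genes did (199 genes, with 1.07% higher and 0.472% lower at day 7). At an unadjusted p under 0.05, 1 enzyme was higher at day 7 and 0 were lower, against 6.29% and 3.78% of all tested genes. limma-voom called 0 of the 32 (0.735% of all genes) and DESeq2 called 1 (6.76% of all genes), the pyruvate carboxylase gene Pcx, which had counts in 2 of the 7 libraries. Day 7 libraries 5 and 6 stood apart in Cd4 and in genes listed for other cells. Without them, edgeR again called 0 of the 32, where it called 1.86% of all genes. The log2 change was positive for 22 enzymes and negative for 10, with a median of 0.13, against a median of 0.04 and a positive share of 53.1% over all genes tested. The widest of these changes outside the sparse genes Pcx and Idh1 were 0.43 for Got2 and -0.30 for Fh1.

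The intervals show how large a change could have gone unseen. For 26 of the 32 enzymes the 95% interval of the log2 change lay within -1 and 1 and so did not hold a 2-fold change in either direction. That held for 32.8% of all genes tested and for 58.6% of the 6398 genes with a mean between 21.3 and 330.3 CPM (counts scaled to a common library size), the range of the enzymes other than Pcx and Idh1. The 6 enzymes with wider intervals were Pcx, Idh1, Pgls, Idh2, Aco1 and Fh1. Of the 30 enzymes in that CPM range, 26 were within -1 and 1. For 7 of the 32 (Acly, Ogdh, Mdh1, Mdh2, Me2, Pgd and Taldo1) the interval lay within a 1.5-fold change either way, against 10.3% of all genes tested. In that CPM range it was 7 of 30 enzymes, against 14.6% of the genes. The genes were not matched to the enzymes for level within the range, so these shares are a rough background.

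**Figure D1:**
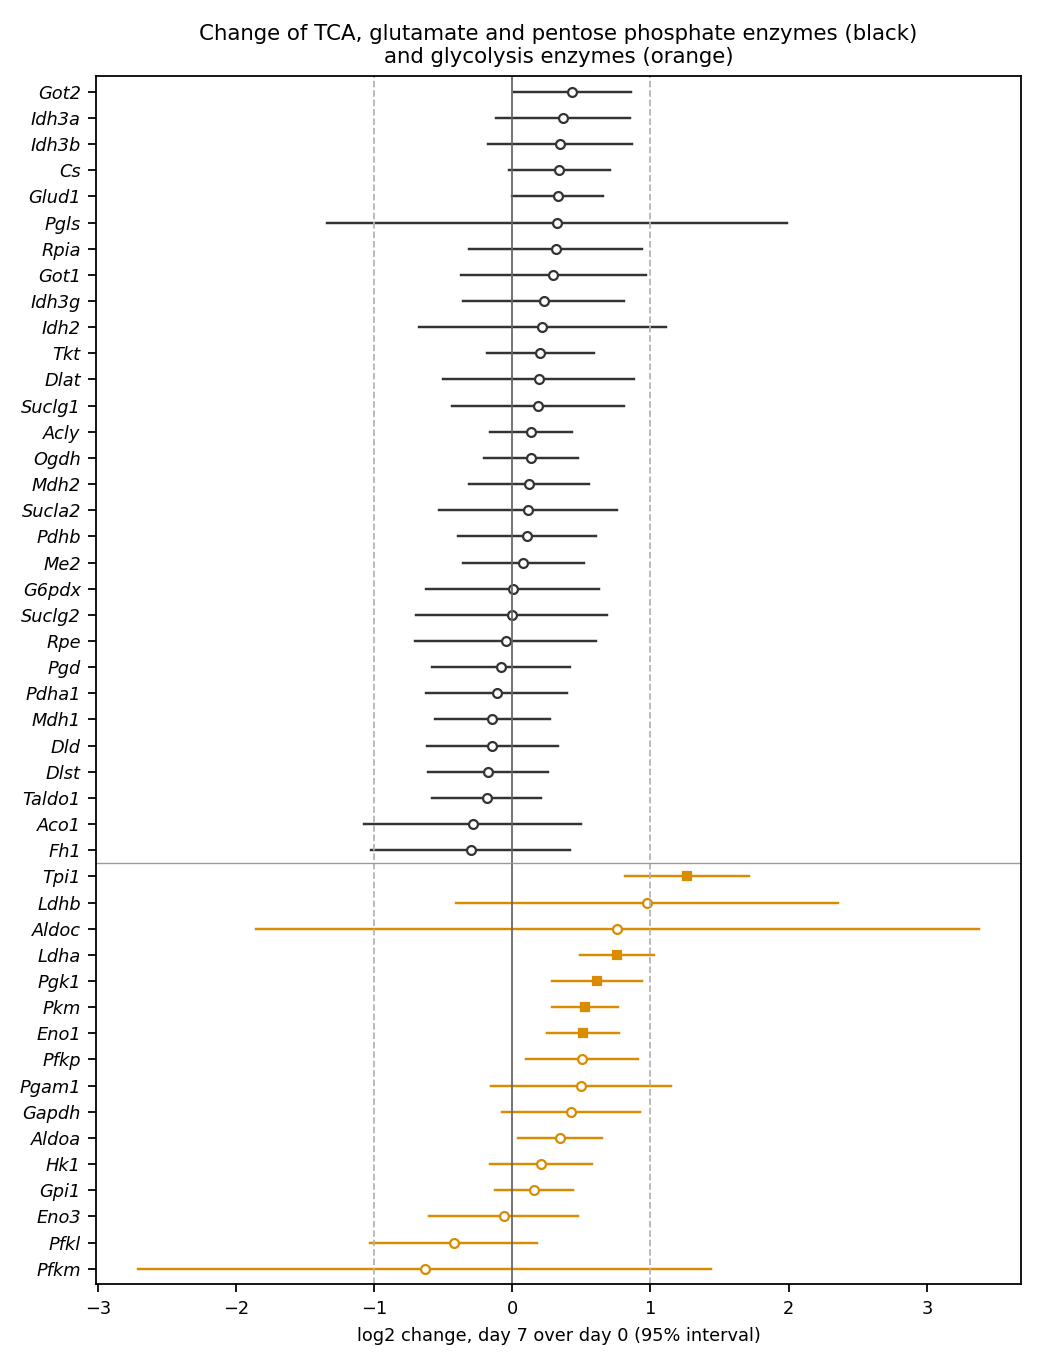
Log2 change, day 7 over day 0, with its 95% interval for 30 of the 32 enzymes (black; Pcx and Idh1 are off the scale or too sparse) and 16 glycolysis enzymes (orange; Hk2 is off the scale). Filled squares passed the edgeR test and open circles did not; dashed lines stand at -1 and 1, and every black symbol is open.

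The libraries carried T cell transcripts throughout and differed in the level of Cd4 and of genes listed for other cells. Total counts ran from 21910818 to 26955367 at day 7 and were 24351820 and 28333855 at day 0. The summed level of 4 T cell genes (Cd3e, Cd3d, Cd3g and Cd4) was 2665 and 2553 CPM in day 7 libraries 5 and 6. It lay between 1994 and 2156 CPM in day 7 libraries 1, 2 and 3 and was 1929 and 2191 CPM at day 0. Cd4 itself had 912 and 935 CPM in libraries 5 and 6, against at most 591 CPM in the other day 7 libraries. Its day 0 values were 386 and 402 CPM. Cd3e lay between 499 and 571 CPM at day 7, with 563 and 508 CPM in libraries 5 and 6. Cd8a and Cd8b1, genes of CD8 T cells, together had 204 and 175 CPM in libraries 5 and 6 of day 7, at most 18.2 CPM in its other libraries, and 3.66 and 2.32 CPM at day 0. In the same 2 libraries 6 macrophage and monocyte genes summed to 221 and 121 CPM, against at most 20.6 CPM in any other. A hepatocyte list (7 of 7 genes in the table) summed to 49.8, 42.2 and 32.6 CPM in day 7 libraries 1, 2 and 3. It summed to 9.84 and 0.0452 CPM in libraries 5 and 6, and to 10.1 and 2.92 CPM at day 0. Alb led it in day 7 libraries 1, 2 and 3, with 33.5, 23.3 and 28.3 CPM. In library 5 Alb had 0.760 CPM and Ttr 6.69 CPM. NK cell genes summed to between 389 and 439 CPM in day 7 libraries 1, 2 and 3. Their sums were 213 and 216 CPM in libraries 5 and 6 and 655 and 726 CPM at day 0. B cell genes summed to between 11.8 and 33.3 CPM at day 7 and to 0.0415 and 2.60 CPM at day 0. A list of 10 proliferation genes summed to between 1720.5 and 1867 CPM in day 7 libraries 1, 2 and 3. It summed to 2218 and 2454 CPM in libraries 5 and 6, and to 778 and 685 CPM at day 0. The sums of 3 endothelial genes lay between 77.6 and 170.1 CPM at day 7 and were 61.6 and 105 CPM at day 0. Those of the neutrophil, hepatoma, fibroblast and erythroid lists were at most 14.8 CPM in any library. Ly6g, Gpc3 and Dcn of these lists were not in the table, which left Afp alone for hepatoma. Afp had 0 to 6.91 CPM at day 7 and 7.98 and 8.95 CPM at day 0. Fibroblast genes summed to between 7.71 and 14.8 CPM at day 7 and to 6.32 and 4.96 CPM at day 0. The part of any of these cells in the enzyme levels was not tested, nor whether the sorted cells themselves held some of these transcripts. In bulk RNA, fewer cells of a type and less RNA per cell cannot be told apart.

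The pyruvate dehydrogenase complex feeds pyruvate carbon into the cycle, and none of its 4 subunit genes in this set passed the test. Pdhx, a further component that was listed with the other pathway genes, did not pass either (log2 change 0.49, interval from -1.12 to 2.09). Pdha1 (Entrez 18597), which encodes the catalytic E1 alpha subunit, had 323, 186, 209, 204 and 161 CPM in day 7 libraries 1, 2, 3, 5 and 6, against 184 and 284 CPM in day 0 libraries 2 and 3. The day 0 values fall inside the day 7 range, and the highest value of all was that of day 7 library 1. Its log2 change was -0.11 ± 0.24 (SE), with a 95% interval from -0.62 to 0.40. Pdhb, the E1 beta subunit, averaged 98.6 ± 13.2 CPM at day 7 and 91.7 ± 31.4 CPM at day 0 (SD, n = 5 and 2, as for all means here). Dlat, the E2 acetyltransferase, averaged 56.6 ± 13.6 CPM and 49.6 ± 22.0 CPM on these days. Dld, the E3 dehydrogenase that this complex shares with the alpha-ketoglutarate dehydrogenase complex, was the steadiest enzyme gene within day 7, at 91.0 ± 7.01 CPM with a coefficient of variation of 7.70%, against 101 ± 23.2 CPM at day 0.

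Pyruvate can also enter as oxaloacetate through pyruvate carboxylase, encoded by Pcx (Entrez 18563). Pcx had 220 and 76 counts in day 7 libraries 1 and 3 (8.13 and 3.24 CPM) and 0 counts in day 7 libraries 2, 5 and 6 and in both day 0 libraries. A day 0 count of 0 allows up to 0.0576 CPM over that group (3 counts, counting error only). Spread between libraries can be far wider than this bound: Idh1 had 0 and 222 counts in day 0 libraries 2 and 3. The 2 libraries with Pcx counts were among the 3 with the highest summed hepatocyte genes, and Pcx was at 0 in the other of these, day 7 library 2. Whether those transcripts contributed was not tested. edgeR did not call Pcx (adjusted p = 0.62, unadjusted p = 0.106), whereas DESeq2 did (adjusted p = 2.77e-06); a fitted fold change against a group at 0 has no fixed size and is not given.

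Citrate synthase, encoded by Cs (Entrez 12974), opens the cycle. Cs had 220.3, 192, 218, 251 and 276 CPM in day 7 libraries 1, 2, 3, 5 and 6, against 206 and 159.6 CPM in day 0 libraries 2 and 3. All day 7 libraries but library 2 were above both day 0 libraries, and libraries 5 and 6 were the highest. The log2 change was 0.34 ± 0.18, with an interval from -0.02 to 0.70 (edgeR adjusted p = 0.538). Aco1, the cytosolic aconitase that also serves as an iron-responsive RNA-binding protein, averaged 33.3 ± 8.54 CPM at day 7 and 40.6 ± 5.11 CPM at day 0. Its day 7 libraries ranged from 18.3 CPM in library 1 to 39.9 CPM in library 2.

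Isocitrate is oxidised by an NAD-dependent enzyme of 3 kinds of subunit and by 2 NADP-dependent enzymes. Idh3a (Entrez 67834), the catalytic subunit of the NAD-dependent enzyme, had 126, 107, 81.3, 125 and 106 CPM in day 7 libraries 1, 2, 3, 5 and 6, against 94.2 and 74.7 CPM in day 0 libraries 2 and 3. Its regulatory partner Idh3b (Entrez 170718) had 77.9, 101, 83.4, 105 and 141 CPM in the same day 7 libraries and 85.5 and 74.3 CPM at day 0. In both genes the day 0 values overlapped the lower day 7 values. The log2 changes were 0.37 ± 0.24 for Idh3a, 0.35 ± 0.25 for Idh3b and 0.23 ± 0.28 for the third subunit, Idh3g, and each interval held 0. Idh2, the mitochondrial NADP-dependent enzyme, averaged 29.5 ± 8.76 CPM at day 7 and 25.4 ± 6.44 CPM at day 0. Idh1 (Entrez 15926), its cytosolic counterpart, had 0, 8.89, 4.23, 5.93 and 12.1 CPM in day 7 libraries 1, 2, 3, 5 and 6, against 0 and 7.92 CPM in day 0 libraries 2 and 3. It was thus without a count in 1 library of each day. The interval of its log2 change, from -3.48 to 4.79, leaves its direction undetermined at this spread.

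The alpha-ketoglutarate dehydrogenase complex and succinyl-CoA ligase carry the cycle to succinate. Ogdh, which encodes the E1 subunit of that complex, averaged 254 ± 34.0 CPM at day 7 and 231 ± 32.3 CPM at day 0, with a log2 change of 0.13 ± 0.17 and an interval from -0.21 to 0.47. Dlst, the E2 subunit, averaged 127 ± 16.4 and 143 ± 43.4 CPM on the 2 days (log2 change -0.17 ± 0.21). Succinyl-CoA ligase has a shared alpha subunit, Suclg1, and a beta subunit that sets its nucleotide, Sucla2 for ADP and Suclg2 for GDP. Suclg1 averaged 59.2 ± 12.4 CPM at day 7 and 52.1 ± 2.49 CPM at day 0. Sucla2 averaged 66.2 ± 20.4 CPM at day 7, from 36.2 CPM in library 6 to 86.0 CPM in library 3, and 61.2 ± 3.58 CPM at day 0. Suclg2 averaged 46 ± 11.2 CPM and 46.1 ± 0.973 CPM, with a log2 change of 0.00 ± 0.34. For all 3 genes the day 0 libraries lay inside the day 7 range.

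Fumarase and malate dehydrogenase close the cycle. Fh1 (Entrez 14194), the fumarase gene, had 52.3, 65.7, 37.4, 30.1 and 50 CPM in day 7 libraries 1, 2, 3, 5 and 6, against 77.8 and 38.4 CPM in day 0 libraries 2 and 3. The day 0 libraries differed from each other by more than the means of the days did, and the log2 change was -0.30 ± 0.35 (interval from -1.03 to 0.42). Mdh2, the mitochondrial malate dehydrogenase, averaged 160.2 ± 36.0 CPM at day 7 and 148 ± 10.8 CPM at day 0. Mdh1, the cytosolic form that takes part in the malate-aspartate shuttle, averaged 169 ± 38.0 CPM and 187 ± 11.2 CPM. Their log2 changes were 0.12 ± 0.21 and -0.14 ± 0.20.

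**Figure D2:**
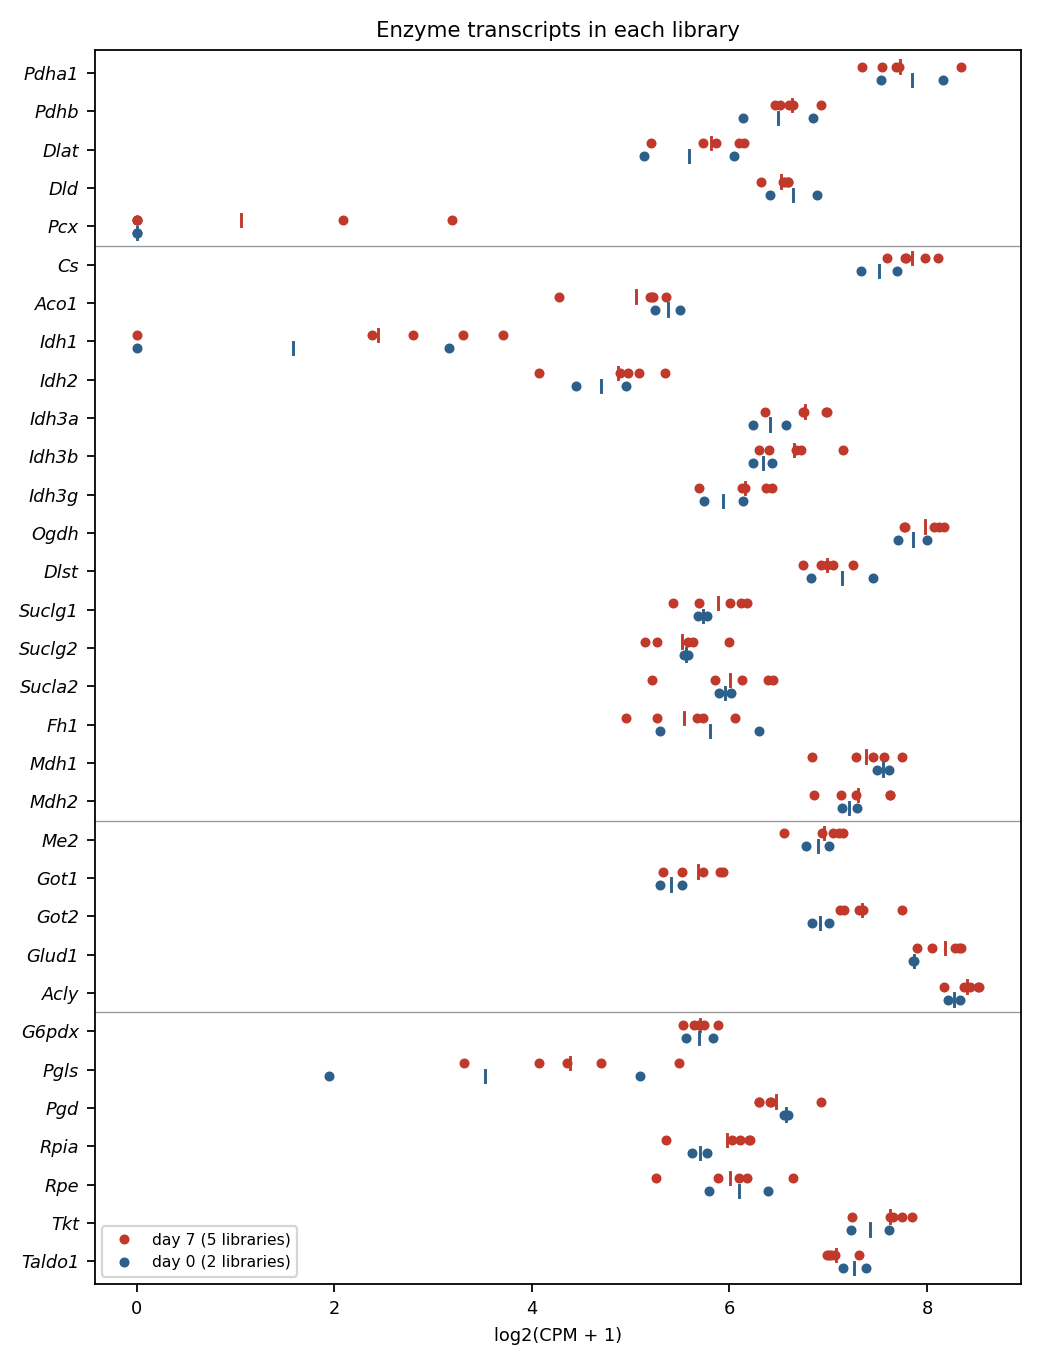
Level of each of the 32 enzymes on a log2(CPM + 1) scale, with 1 point per library, day 7 above day 0 for each gene and vertical ticks at the means of the plotted values. Lines separate pyruvate entry, TCA cycle, side branches and pentose phosphate pathway; Got2 and Glud1 are the genes whose day 7 points all lie above day 0.

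The enzymes that link the cycle to glutamate and aspartate held both of the genes whose groups did not overlap. Got2 (Entrez 14719), the mitochondrial aspartate aminotransferase, had 158, 162, 213, 138 and 142 CPM in day 7 libraries 1, 2, 3, 5 and 6, against 128 and 113 CPM in day 0 libraries 2 and 3. Every day 7 library was above both day 0 libraries, with library 3 the highest. The log2 change was 0.43 ± 0.20 with an interval from 0.01 to 0.86, at an unadjusted p of 0.0438 and an edgeR adjusted p of 0.47, so Got2 did not pass. Without day 7 libraries 5 and 6, the log2 change was 0.55 ± 0.20 (edgeR adjusted p = 0.246). Glud1 (Entrez 14661), the glutamate dehydrogenase that makes alpha-ketoglutarate, had 237, 264, 318, 325 and 311 CPM in the same day 7 libraries, against 232 and 231 CPM at day 0. Day 7 library 1 stood barely above day 0, and the other day 7 libraries were clearly higher. Its log2 change was 0.33 ± 0.16 (edgeR adjusted p = 0.496). Without day 7 libraries 5 and 6, the log2 change of Glud1 was 0.22 ± 0.15 (edgeR adjusted p = 0.661), that of Cs 0.19 ± 0.17 and that of Idh3b 0.12 ± 0.25. Leaving out these libraries thus gave a larger change for Got2 and smaller ones for Glud1, Cs and Idh3b, none of them called. These genes do not stand for the whole list. The median log2 change of the 32 enzymes was 0.13 both with and without these libraries. Among the others the change grew for Mdh2 (0.12 to 0.29), for example, and shrank for Idh3g (0.23 to 0.04). Day 7 stood above day 0 without overlap in these 2 of 32 enzymes and below it in 0, where 7.53% of all tested genes were above and 7.74% below. A count of 2 is near that background.

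The cytosolic aminotransferase Got1 (Entrez 14718) had 60.2, 45, 58.7, 52.1 and 39.2 CPM at day 7, in library order, against 44.7 and 38.3 CPM at day 0. The lowest day 7 library lay between the day 0 libraries, and the log2 change was 0.30 ± 0.33. Acly (Entrez 104112), the ATP citrate lyase that turns exported citrate into cytosolic acetyl-CoA, had 332, 346, 364, 367 and 287 CPM at day 7 against 295 and 322 CPM at day 0. Day 7 library 6 was the lowest of all and libraries 3 and 5 the highest, with a log2 change of 0.14 ± 0.14 and an interval from -0.16 to 0.44. Me2, the mitochondrial malic enzyme that makes pyruvate from malate, averaged 125 ± 19.3 CPM at day 7 and 118 ± 13.8 CPM at day 0.

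In the oxidative arm of the pentose phosphate pathway, G6pdx, the glucose-6-phosphate dehydrogenase that commits glucose to the pathway, averaged 51.1 ± 4.72 CPM at day 7 and 51.0 ± 6.99 CPM at day 0. Its log2 change was 0.00 ± 0.30, with an interval from -0.62 to 0.63. Pgd, the 6-phosphogluconate dehydrogenase, averaged 89.0 ± 18.2 CPM at day 7 and 94.3 ± 1.75 CPM at day 0 (log2 change -0.08 ± 0.24). Pgls, the lactonase between them, was the most variable gene of the arm. It had 43.9, 24.9, 19.5, 8.93 and 15.8 CPM in day 7 libraries 1, 2, 3, 5 and 6, against 2.87 and 33.1 CPM in day 0 libraries 2 and 3. All day 7 libraries but library 1 lay between the 2 day 0 libraries, and its interval ran from -1.34 to 1.99.

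The non-oxidative arm exchanges sugar phosphates with glycolysis. Tkt (Entrez 21881), the transketolase, had 214, 150.0, 200.1, 197 and 229 CPM in day 7 libraries 1, 2, 3, 5 and 6, against 195 and 149 CPM at day 0. Taldo1 (Entrez 21351), the transaldolase, had 126, 129, 133, 158 and 127 CPM at day 7 against 166 and 140.5 CPM at day 0. Day 7 library 5 was the single day 7 library whose Taldo1 level reached the day 0 range. The log2 changes were 0.20 ± 0.19 for Tkt and -0.19 ± 0.19 for Taldo1. Rpia (Entrez 19895), the ribose-5-phosphate isomerase, had 68.0, 72.3, 64.2, 39.9 and 72.9 CPM at day 7 against 48.3 and 53.8 CPM at day 0. Of the day 7 libraries, library 5 alone was below day 0, and the log2 change was 0.31 ± 0.30. Rpe, the ribulose-phosphate epimerase, averaged 66.5 ± 22.4 CPM at day 7 and 68.7 ± 20.0 CPM at day 0.

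Levels of different enzymes were compared per kilobase of exon, with exon lengths from the GENCODE M21 annotation, which may not be the one used for counting. On this scale the day 7 means ran from 69.1 ± 9.12 CPM per kilobase for Glud1, through 65.8 ± 14.8 for Mdh1, 64.2 ± 6.15 for Acly, 62.1 ± 6.03 for Taldo1 and 58.0 ± 16.7 for Pdha1, to 2.25 ± 1.66 for Idh1 and 0.479 ± 0.749 for Pcx. Neighbours among the first 5 differed by less than 1 SD. At day 0 the same 5 genes led, in the order Mdh1 (72.7 ± 4.37), Taldo1 (70.6 ± 8.37), Pdha1 (62.7 ± 18.9), Acly (58.4 ± 3.60) and Glud1 (55.1 ± 0.175). Within the NAD-dependent isocitrate dehydrogenase the 3 subunits were close, at 29.7 ± 7.28 for Idh3b, 26.4 ± 4.98 for Idh3g and 21.5 ± 3.56 for Idh3a at day 7. The pyruvate dehydrogenase subunits in this set were spread more widely at day 7, from 58.0 ± 16.7 for Pdha1 to 11.6 ± 2.78 for Dlat.

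**Figure D3:**
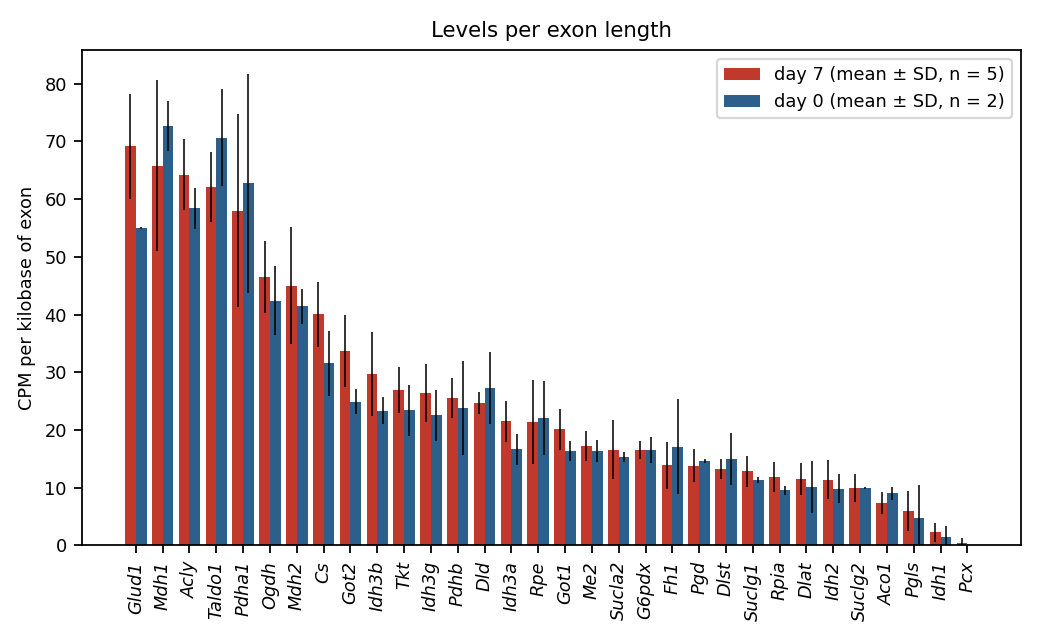
Mean level per kilobase of exon at day 7 (left bar, n = 5) and day 0 (right bar, n = 2) with SD, ordered by the day 7 mean. Glud1, Mdh1, Acly, Taldo1 and Pdha1 lead on both days, and Pgls, Idh1 and Pcx are the lowest.

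A ratio of 2 genes within a library needs no scaling factor, so the balance of paired enzymes was compared as log2 count ratios by an exact two-sided permutation test over 21 splits. Such an exact test cannot go below p = 0.0476, and the 9 ratios were adjusted together. After that adjustment no ratio could pass 0.05 unless all 9 stood at this floor. The adjusted p therefore could not show a change in a single ratio. The cytosolic to mitochondrial ratio Mdh1/Mdh2 was 0.07 ± 0.43 at day 7 and 0.34 ± 0.19 at day 0 on the log2 scale (exact permutation p = 0.571). Got1/Got2 was -1.67 ± 0.25 at day 7 and -1.54 ± 0.03 at day 0 (exact permutation p = 0.429). Suclg2/Sucla2 was -0.49 ± 0.59 and -0.41 ± 0.11, with day 7 library 6 the single library where Suclg2 had more counts than Sucla2, at a ratio of 1.34. Idh2/Idh3a was -1.93 ± 0.61 at day 7 and -1.75 ± 0.61 at day 0, Acly/Cs was 0.56 ± 0.30 and 0.77 ± 0.35, and G6pdx/Pgd was -0.79 ± 0.29 and -0.89 ± 0.17. Idh1/Idh2 stood between 0.140 and 0.423 in the day 7 libraries with Idh1 counts and at 0.265 in the day 0 library with them. All adjusted p were 0.857.

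Ratios at the forks with glycolysis, chosen after the data were seen, were set beside these. Ldha makes lactate from the pyruvate that Pdha1 would send to the cycle, and Ldha/Pdha1 as a plain count ratio was 1.64, 2.93, 3.04, 3.10 and 3.69 in day 7 libraries 1, 2, 3, 5 and 6, against 1.95 and 1.18 in day 0 libraries 2 and 3. Every day 7 library except library 1 was above both day 0 libraries, with a log2 difference of 0.88 (exact permutation p = 0.0952, adjusted p = 0.857). Gpi1/G6pdx, at the fork of glucose-6-phosphate, averaged 3.11 ± 0.18 at day 7 and 2.95 ± 0.44 at day 0 on the log2 scale (exact permutation p = 0.524).

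**Figure D4:**
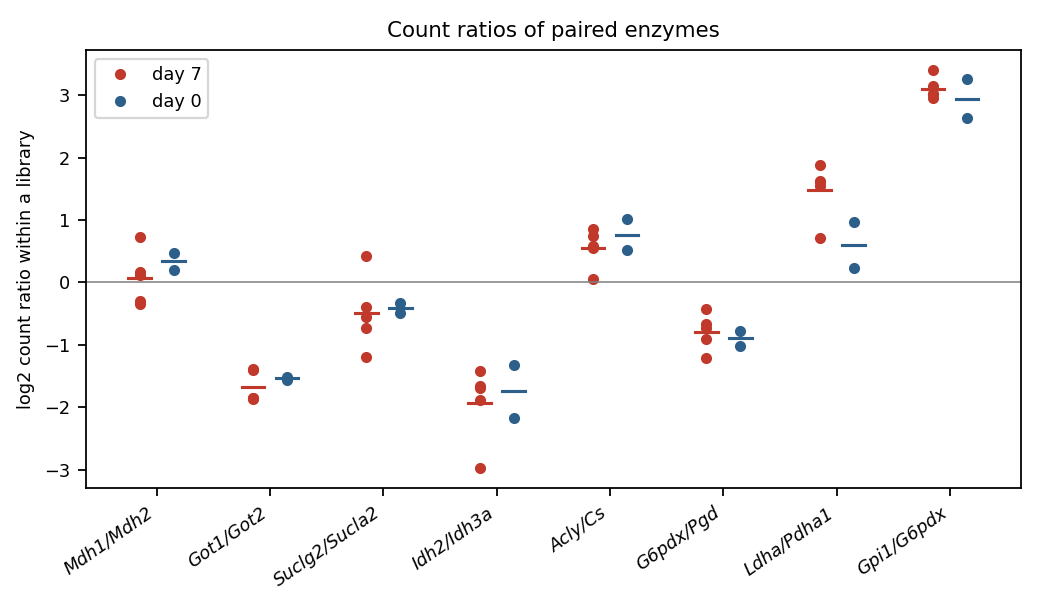
Log2 count ratio of 2 genes in each library, day 7 left of day 0, with bars at the means (Idh1/Idh2 is left out because of libraries at 0). The days overlap in every ratio shown.

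Glycolysis enzymes gave another count in the same fit. Of 17 such genes, listed with earlier results of these data known, 6 rose at day 7 and 0 fell (Hk2, Ldha, Tpi1, Pkm, Eno1 and Pgk1), with a median log2 change of 0.51, where 1.07% of all tested genes rose, 0.472% fell and the median was 0.04. The TCA, glutamate and pentose phosphate enzymes stood at 0 of 32 and 0.13. The difference between the lists was not tested. As a share of all counts, the 17 glycolysis genes took between 0.411% and 0.485% of each day 7 library and 0.301% and 0.333% of the day 0 libraries. The 32 enzymes took between 0.343% and 0.368% of each day 7 library, and 0.322% and 0.332% of the day 0 libraries. Neither share overlapped between the days. The rate of such cases among single genes, 7.53% above and 7.74% below, is no background for summed shares. Of the 4 groups of enzymes, the glutamate, aspartate, malate and citrate group, which holds Got2 and Glud1, was the single one without overlap, at 0.0909% to 0.106% of the day 7 libraries against 0.0799% and 0.0824% of the day 0 libraries. That sum includes the Got2 and Glud1 values given above, beside those of Acly, Got1 and Me2, and is no independent result. The pentose phosphate group took between 0.0594% and 0.0680% at day 7 and 0.0611% and 0.0592% at day 0.

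Further genes of these pathways, 41 in a list that does not overlap the 32 enzymes, were read from the same fit. The table held 39 and 36 were tested. edgeR called 0 of the 36 (1.54% of all genes), limma-voom called 0 (0.735%) and DESeq2 called 1 (6.76%). At an unadjusted p under 0.05 in edgeR, 2 were higher and 0 lower, against 6.29% and 3.78% of all genes, so these counts are near or below the background. Their median log2 change was 0.04, the same as over all genes tested. Pdp2 (Entrez 382051), a phosphatase that reactivates pyruvate dehydrogenase, had 24.2, 34.7, 35.3, 27.2 and 12.2 CPM in day 7 libraries 1, 2, 3, 5 and 6, against 9.35 and 11.4 CPM in day 0 libraries 2 and 3. All day 7 values were higher, library 6 by little, and the log2 change was 1.37 ± 0.54 (edgeR adjusted p = 0.321, and 0.0486 with DESeq2).

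Acss1 (Entrez 68738), which makes mitochondrial acetyl-CoA from acetate, had 26.6, 29.6, 24.5, 33.7 and 13.2 CPM at day 7 against 13.2 and 1.96 CPM at day 0. The 13.2 CPM of day 7 library 6 matched that of day 0 library 2, and the log2 change was 1.75 ± 0.65 (edgeR adjusted p = 0.277). Without day 0 library 2 it was 3.70 and passed (edgeR adjusted p = 0.0132), in a fit where day 0 was the low library 3 alone, assumed to vary like the day 7 libraries. Its cytosolic counterpart Acss2 averaged 47.9 ± 12.1 CPM at day 7 and 66.7 ± 5.51 CPM at day 0. Pdk3, a kinase that inactivates pyruvate dehydrogenase, averaged 35.4 ± 11.4 CPM and 20.9 ± 6.21 CPM, and the glutamine carrier Slc38a1 averaged 196 ± 17.3 CPM and 163 ± 4.78 CPM. Pck1, the cytosolic phosphoenolpyruvate carboxykinase, had between 0 and 5.36 CPM at day 7 and 0 counts in both day 0 libraries. None of these 4 genes passed.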

How the data were processed

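Per the labels' protocols, TRIzol extracts were made into standard Illumina libraries. CASAVA 1.8, HISAT2 2.0.5 and featureCounts 1.5.0-p3 are named, without roles or settings, per the submitters' processing notes; build, annotation and strand setting were not given in the sources used here. Coordinates are therefore left out, and near-identical or overlapping genes may share reads. The authors deposited raw counts per gene, unnormalized. Between 72.4% and 78.1% of counts from 2 to 200 were even, where about 50% would be even if each fragment counted once, so small counts may stand for fewer fragments. Column names gave the day of all 7 columns but not the sample, since their last digits differ from those of the sample titles.

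The filterByExpr function kept 12929 genes, TMM factors lay between 0.988 and 1.01, and edgeR 4.0.16 in R 4.3.3 gave the quasi-likelihood test of day 7 against day 0 (robust option, Benjamini-Hochberg threshold 0.05). Standard errors come from the F statistic and 95% intervals from the degrees of freedom of the fit. CPM use the TMM factors. Log2 count ratios had 0.5 added to each count. The code was tested on simulated data. Alternatives were other scalings and filters, limma-voom (limma 3.58.1), DESeq2 1.42.0, no robust option, each library left out, day 7 libraries 5 and 6 left out and a block by column digit. The enzymes, lists and alternatives were chosen with earlier results of these data known. Library values are given for the 12 enzymes of smallest p, and for Pdha1, Pgls and Idh1, which were chosen after their values were seen. Sequences were not used here.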

Additional observations from a re-analysis of the deposited data

Results flagged for a closer look

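Of 33 sets of 5 day 7 values checked (32 enzymes and their summed share of counts), 5 held a library far from the others, by a gap of more than 0.71 of the whole range; chance flags about 1 in 20 such sets. Aco1 stood at 18.3 CPM in day 7 library 1, with the next library at 35.6 CPM. Pgd stood at 121 CPM in day 7 library 2, with the next at 84.7 CPM. The other 3 cases were in day 7 library 5, which had the lowest day 7 level of Dld (78.7 CPM, the next at 91.9 CPM) and of Rpia (39.9 CPM, the next at 64.2 CPM) and the highest of Taldo1 (158 CPM, the next at 133 CPM). Day 7 library 5 also carried high summed Cd8a and Cd8b1 (204 CPM) and macrophage genes (221 CPM), and their part in these 3 levels was not tested.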

How the results depend on the processing

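No enzyme was called in any of the 17 other settings except Pcx with DESeq2 (1 member called higher, against day 0 libraries at 0 counts). In 541 enzyme and setting combinations the sign differed from the reported one in 30, all of them uncalled. With any 1 library left out, the reversing ranges of log2 change were -0.34 to 10.27 for Idh1 (the upper value has no fixed size, since the day 0 library left had 0 counts), -0.018 to 0.51 for Idh2, -0.72 to 0.30 for Fh1, -0.20 to 0.74 for Dlat, -0.033 to 0.21 for Me2, -0.55 to 2.98 for Pgls, -0.45 to 0.18 for Dlst, -0.36 to 0.12 for Dld, -0.14 to 0.086 for Suclg2, -0.39 to 0.24 for Pdha1, -0.20 to 0.51 for Pdhb, -0.12 to 0.15 for G6pdx and -0.31 to 0.29 for Rpe. G6pdx was at -0.00030 with RLE scaling, -0.0051 with upper-quartile scaling, -0.0098 with a minimum mean of 5 CPM and -0.00018 with DESeq2, and Suclg2 at 0.0189 with no scaling factors and 0.0025 with no filter. Without day 7 libraries 5 and 6, Pdha1 was at 0.0148. The genes called over the whole table numbered 375 with no filter, 830 with DESeq2, 95 with limma-voom and 127 to 189 with 1 library left out; of the other pathway genes DESeq2 called 1 (Pdp2) and the leave-one-out fits 0 to 1 (Acss1, without day 0 library 2, where day 0 was 1 library assumed to vary like day 7). The cause of these differences was not tested.

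A replicate block by the last digit of the column names, shared between days only for digits 2 and 3, called 82 genes and 0 enzymes, and turned Idh3g to -0.0129, Me2 to -0.0400 and Pgd to 0.0385; nothing shows that equal digits mark paired samples. With 1 library left out the log2 ratio differences ranged from -1.77 to 6.28 for Idh1/Idh2 (its upper value again against a library with 0 counts of Idh1), -0.31 to 0.091 for Suclg2/Sucla2, -0.61 to 0.24 for Idh2/Idh3a, -0.455 to 0.037 for Acly/Cs, -0.013 to 0.23 for G6pdx/Pgd and -0.15 to 0.47 for Gpi1/G6pdx, and Idh2/Idh3a was 0.15 without day 7 libraries 5 and 6. With nothing added to the counts no Idh1/Idh2 value could be had. Total counts were alike across libraries, and Pcx and Idh1 had libraries at 0 counts beside others with 76 to 268. The 2 day 0 libraries leave that group's spread poorly known.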

Other observations

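Among the 30 enzymes other than Pcx and Idh1, the highest of the 7 libraries was day 7 library 1 for 8 (26.7%, where that library was the highest for 14.4% of all tested genes) and the lowest was day 0 library 3 for 8 (26.7%, against 17.7% of all tested genes). Day 0 libraries 2 and 3 held the highest value for 3 and 2 of the 30 (10% and 6.67%, against 14.9% and 14.1% of all tested genes). Day 0 library 2 was the lowest for 3 (10%, against 22.4% of all tested genes). These counts are small and are a part of those for the 7 libraries. They depend on each other, since each gene has a single highest and a single lowest library. They describe single libraries, rest on scaled counts, and were not tested.

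Variation within day 7 was of the same order as in genes of the same CPM range, which were not matched for level within it. The median coefficient of variation over the day 7 libraries was 19.7% for these 30 enzymes, against 23.1% for all tested genes in their CPM range. It was lowest for Dld (7.70%), G6pdx (9.25%), Acly (9.57%) and Taldo1 (9.72%), and highest for Pgls (58.6%) and Rpe (33.7%). In the deposited annotation 24 of the 32 enzymes carried a mitochondrial Gene Ontology term, Mdh1, Idh1, Aco1 and Acly among them; the median log2 change was 0.13 for these 24 and 0.10 for the other 8.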
